A study of Mus musculus with 16 samples.

Results

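Collagen chain genes were described across 16 libraries of mouse stomach. Members were all gene symbols of the count table made of Col, a number, a and a number, which gave 44 of the 24964 symbols. Collagens are the main structural proteins of the extracellular matrix. Each molecule is a trimer of chains wound into a helix, and the chain set differs by type. Type I and III chains build the fibrils of the stomach wall, type IV chains the sheet of basement membranes under epithelium, vessels and muscle cells, and type VI chains beaded filaments around cells. In the gastric corpus, the acid-secreting body of the stomach, these chains are made mostly by fibroblasts, smooth muscle and endothelium, and some by epithelium.

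The tissue was the lesser curvature of the corpus, taken as 4 mm biopsies from female mice aged 8 weeks, and there were 4 libraries in each of 4 groups. WT-S and WT-A came from wild-type C57BL/6 mice. TTP-S and TTP-A came from congenic C57BL/6 mice with the TTPΔARE allele, in which the transcript of Zfp36, the gene of the RNA-decay factor tristetraprolin (TTP), lacks its AU-rich element. A stands for adrenalectomy, the removal of the adrenal glands and so of all their hormones, and per the labels it induced gastric inflammation. For S the treatment field gives spasmolytic polypeptide-expressing metaplasia, and what the letter stands for or whether these mice had an operation is not stated, so S serves only as a group name. The labels do not say that replicates were separate mice, so p-values measure the spread between these samples.

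Collagen chains are recognised by a coding sequence with a glycine codon at the start of each triplet of codons (Gly-X-Y), because glycine alone is small enough to sit in the core of the helix. Stretches of 20 triplets are shown from the start of the longest uninterrupted run in a fibrillar chain (Col1a1, codons 168 to 227), a basement membrane chain (Col4a1, codons 43 to 102) and both chains called in TTPΔARE mice below (Col11a2, codons 401 to 460, and Col6a5, codons 1442 to 1501). They are exonic coding sequence, 5′ to 3′ on the coding strand, from the longest protein-coding transcript of the GENCODE M21 annotation of GRCm38, with the first codon of each triplet, a glycine codon, in capitals.
Col1a1: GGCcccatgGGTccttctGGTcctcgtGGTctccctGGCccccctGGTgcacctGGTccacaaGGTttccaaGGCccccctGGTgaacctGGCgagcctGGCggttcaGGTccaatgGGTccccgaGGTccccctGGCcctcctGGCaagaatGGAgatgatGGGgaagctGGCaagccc
Col4a1: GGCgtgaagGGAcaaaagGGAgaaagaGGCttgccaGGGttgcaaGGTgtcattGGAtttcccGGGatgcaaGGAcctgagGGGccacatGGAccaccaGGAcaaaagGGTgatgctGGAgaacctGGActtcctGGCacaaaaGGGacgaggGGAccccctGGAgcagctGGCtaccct
Col11a2: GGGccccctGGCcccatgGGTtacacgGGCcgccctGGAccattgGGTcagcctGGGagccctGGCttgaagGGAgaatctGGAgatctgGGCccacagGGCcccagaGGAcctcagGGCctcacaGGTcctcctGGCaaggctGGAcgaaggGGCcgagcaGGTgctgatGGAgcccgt
Col6a5: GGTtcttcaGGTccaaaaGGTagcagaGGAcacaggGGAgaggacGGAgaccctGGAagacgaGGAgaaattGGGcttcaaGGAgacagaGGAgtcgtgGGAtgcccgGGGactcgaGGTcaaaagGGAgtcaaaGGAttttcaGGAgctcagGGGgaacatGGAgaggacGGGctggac
Col1a1 (chr11:94936224-94953042, plus strand) and Col11a2 (chr17:34039437-34066685, plus strand) hold 338 triplets each in that run, the length typical of a fibril-forming chain. Col4a1 (chr8:11198423-11312826, minus strand) is broken into shorter runs, the longest of 40 triplets. Col6a5 (chr9:105856078-105960643, minus strand) has 37, and runs of at least 5 triplets make up 11.8% of its codons against 73.3% in Col1a1, since most of a type VI chain is globular. Glycine codons begin with GG and proline codons with CC, and the runs of Col1a1 were 65.3% G and C. Over the 40 measured members the median GC content of the transcript was 55.4%, against 50.3% over all genes tested. In the RefSeq promoter table (GRCm38.p6), the 250 bases before the start held GGGCGG, on either strand, in 22 of the 38 member promoters found there, against 32.74% of all 32851 promoters. The 3 other motifs searched were the TATA box TATAAA (5 of 38, against 12.37%), the CCAAT box CCAAT (13 of 38, against 33.85%) and the glucocorticoid receptor half-site AGAACA (2 of 38, against 16.08%).

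Libraries held 17453930 to 25849472 counts, of which collagens took 0.298% to 0.588%. Zfp36 was at 55.1 to 88.6 CPM, counts scaled to a common library size, in wild-type and 110.5 to 131 CPM in TTPΔARE libraries. All 7 markers of corpus epithelium were detected, with a sum of 86211 to 206218 CPM, and 6 markers of forestomach squamous epithelium summed to 1.15 to 764.8 CPM. WT-A 3 and WT-A 4 stood apart by base composition. Their deviation from the gene medians followed transcript GC content with a Spearman rho of 0.730 and 0.757 across 11493 genes, against -0.310 to 0.166 in the other 14 libraries. Over the measured collagens the median of the fitted curve was 0.178 and 0.196 on the log2 scale in this pair. Single members ranged from -0.227 to 0.262 in WT-A 3 and from -0.246 to 0.339 in WT-A 4. Differences of collagen genes between WT-A and WT-S are therefore set beside their value without the pair (14 libraries), and the count of all members called also beside that with library offsets taken from the GC curve.

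Of the 44 chain genes, 40 were measured and 4 were low, which means that fewer than 4 libraries held at least 10 counts. The low genes were the fibrillar chain Col2a1, the cartilage chain Col9a1, the hypertrophic cartilage chain Col10a1, and Col26a1. No library exceeded 3 counts for Col2a1 and Col9a1, 5 for Col10a1 and 6 for Col26a1. Col22a1 held 4 to 18 counts, and if low is read as under 10 counts in at least 4 libraries it joins them, for 5 low genes and 39 measured. At this depth, expression of the 4 low genes in any group was not detectable beyond a few counts, and a count of 0 still allows 3. Of 6 chondrocyte markers, a list added after seeing the data, Acan and Matn1 reached at most 0.112 CPM in any library, Matn3 0.371 and Hapln1 3.06. Chad was at 15.2 to 42.9 and Sox9 at 78.02 to 151 CPM.

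Fibrillar chains made up 45.5% of collagen CPM on average, type VI chains 21.7%, type IV chains 20.7% and the multiplexins, which sit at basement membranes, 7.33%. Col1a1, Col1a2 and Col3a1 alone took 37.2%, and Col4a1 with Col4a2 17.2%. Per kb of transcript, Col3a1 was the most abundant chain, at 154 CPM per kb averaged over all libraries. Col6a1 followed at 73.4, Col6a2 at 72.6, Col1a2 at 58.9, Col1a1 at 55.5, Col4a1 at 54.9 and Col4a2 at 50.01 CPM per kb. Of these 7 genes Col3a1 was highest in every library, Col6a1 and Col6a2 lay above Col1a1, Col4a1 and Col4a2 in every library, and Col4a1 lay above Col4a2 in every library. Col6a1 and Col6a2 traded places, Col1a2 exceeded Col6a2 in TTP-S 1 and TTP-S 3 and Col6a1 in TTP-S 1, and Col1a2 and Col1a1 traded places with each other and with Col4a1 and Col4a2, with Col4a2 above Col1a1 in all 4 WT-S libraries and Col1a1 above Col1a2 in all 4 WT-A libraries. The multiplexins Col15a1 and Col18a1 stood at 35.8 and 19.5 CPM per kb, and the type V chains Col5a2 and Col5a1, which start type I fibrils, at 17.1 and 13.7.

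Other type IV chains were far lower than Col4a1 and Col4a2, with Col4a5 at 8.497, Col4a6 at 4.83, Col4a3 at 3.81 and Col4a4 at 1.504 CPM per kb. Among type VI chains, Col6a5 averaged 12.5, Col6a3 8.23, Col6a4 5.78 and Col6a6 0.112 CPM per kb over all libraries. Col6a5 stood above Col6a3 only in the means of the A groups, at 19.8 against 9.002 CPM per kb in WT-A and 20.8 against 8.08 in TTP-A. In WT-S it was at 6.73 against 7.09, and in TTP-S at 2.77 against 8.74. The fibril-associated chains, which coat fibrils, ran from 8.27 CPM per kb for Col16a1 through Col14a1 (3.52), Col19a1 (2.704), Col12a1 (2.48), Col20a1 (1.92) and Col9a3 (1.92) to Col9a2 (0.364) and Col22a1 (0.0482). The remaining fibrillar chains were Col27a1 (7.39), Col5a3 (4.86), Col11a2 (1.78), Col24a1 (0.849) and Col11a1 (0.442). Transmembrane chains were at 3.31 CPM per kb for Col13a1, 1.02 for Col23a1, 0.677 for the hemidesmosome chain Col17a1 and 0.274 for Col25a1. The anchoring fibril chain Col7a1 averaged 2.396, the type VIII chains Col8a2 and Col8a1 1.75 and 1.54, and Col28a1 1.37 CPM per kb.

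**Figure D1:**
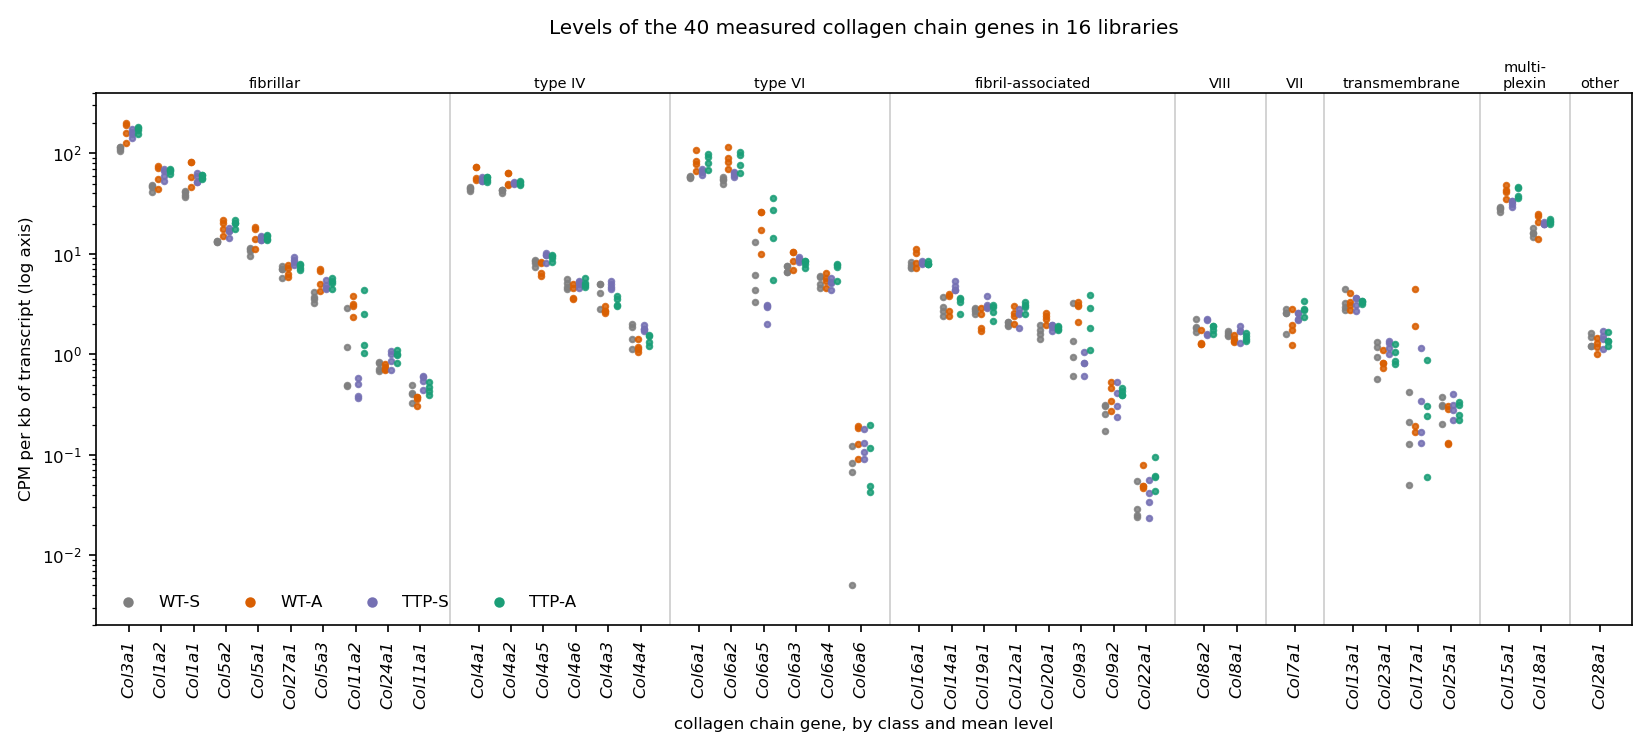
Level of each of the 40 measured collagen chain genes in each of 16 libraries, in CPM per kb of transcript on a log axis, grouped by class, with 1 point per library coloured by group. Col3a1 is highest at a mean of 154, Col6a5, Col11a2, Col9a3 and Col17a1 are spread widely between libraries of a group, and the lowest measured genes, Col6a6 and Col22a1, lie at means of 0.112 and 0.0482.

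The first comparison asked how collagen chains differed after adrenalectomy in wild-type mice. Of the 40 measured members, 17 were called in WT-A against WT-S (edgeR quasi-likelihood test, adjusted p under 0.05), 14 higher and 3 lower. Of all genes tested 18.8% were called, 9.8% higher and 8.99% lower. The median log2 difference of the members was 0.35 against 0.0094 over all genes tested, and 25 of the 40 lay above 0. An unadjusted p under 0.05 was reached by 25 (background 36.5%). Without WT-A 3 and WT-A 4 the count was 14, with 9 higher and 5 lower (background 10.4%, 4.64% higher and 5.75% lower), and the median 0.11, and with GC offsets 16 (background 15.4%). A fit of these groups alone called 7 (background 4.49%). The calls shared by all 3 fits were the 10 of Col1a1, Col3a1, Col5a2, Col4a1, Col4a2, Col4a3, Col6a2, Col15a1, Col20a1 and Col8a2. All collagens together summed to 3093 to 3227 CPM in WT-S and 3549 to 5424 in WT-A, with no overlap.

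Among fibrillar chains 6 of 10 measured rose and none fell in WT-A (background 9.8% higher), with a median log2 difference of 0.50. In 14 libraries 3 rose (background 4.64%) and the median was 0.27. Their summed level was 1369.9 ± 59.1 CPM in WT-S against 2040.5 ± 431 CPM in WT-A (SD, n = 4 each). Col3a1, which forms type III homotrimers in pliable tissue, stood highest. Col3a1 was at 592, 636, 621 and 639.6 CPM in WT-S, 711, 884, 1125 and 1075 in WT-A, 969.9, 873, 913 and 792 in TTP-S and 999, 872, 958 and 1025 in TTP-A. Every WT-A library exceeded every WT-S library, and the pair set apart by GC content was highest. The log2 difference was 0.61 (SE 0.11, adjusted p = 0.00363 by edgeR), and 0.36 in 14 libraries (adjusted p = 0.0245).

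Col1a1 and Col1a2 encode the chains of type I collagen, and Col1a1 was at 218, 244, 227 and 248 CPM in WT-S, 272, 348, 487 and 481 in WT-A, 377, 309.7, 353 and 305 in TTP-S and 365, 327, 339 and 363 in TTP-A. WT-A again lay wholly above WT-S, by 0.76 on the log2 scale (SE 0.14, adjusted p = 0.0037, edgeR), or 0.41 in 14 libraries (adjusted p = 0.0206). Col1a2 stood at 223, 258, 246 and 252 CPM in WT-S, 234, 299.9, 401 and 379.7 in WT-A, 370.1, 316, 356 and 285 in TTP-S and 356, 330.2, 366 and 369.7 in TTP-A. WT-A 1 lay among the WT-S libraries here, so the groups overlapped. The difference of 0.42 (SE 0.13, adjusted p = 0.0346, edgeR) was 0.12 in 14 libraries (adjusted p = 0.494), and in fits that left out 1 library of these groups it was called only without WT-A 1 or WT-A 2, with an adjusted p of up to 0.125.

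Type V chains, which mix into type I fibrils and set their width, rose as a set of 3. Col5a2 held 88.3, 87.5, 88.4 and 86.9 CPM in WT-S, 100.3, 117, 144 and 134 in WT-A, 121, 111, 110.5 and 94.9 in TTP-S and 136, 117, 134 and 144 in TTP-A. WT-S libraries lay close together and WT-A lay wholly above it, with a log2 difference of 0.50 (SE 0.10, adjusted p = 0.005, edgeR) and 0.31 in 14 libraries (adjusted p = 0.0433). Col5a1 was at 80.6, 95.3, 90.01 and 94.5 CPM in WT-S, 93.8, 117, 154 and 149 in WT-A, 126, 116, 124 and 116 in TTP-S and 130.2, 115, 118 and 126 in TTP-A. Col5a3 was at 20.04, 25.5, 21.96 and 22.5 CPM in WT-S, 25.9, 30.7, 42.99 and 40.9 in WT-A, 28.03, 27.6, 30.2 and 33.2 in TTP-S and 32.7, 31.5, 27.2 and 34.8 in TTP-A. Their log2 differences in WT-A were 0.51 (SE 0.12) for Col5a1 and 0.64 (SE 0.14) for Col5a3, with adjusted p of 0.01 and 0.00717 (edgeR). Neither was called in 14 libraries (log2 0.23 and 0.33, adjusted p = 0.105 and 0.0706). The other fibrillar chains were not called, with log2 differences of -0.01 for Col27a1, -0.04 for Col24a1, -0.22 for Col11a1 and 1.33 for Col11a2 (adjusted p = 0.0688). In 14 libraries these were -0.17, -0.11, -0.14 and 1.49.

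**Figure D2:**
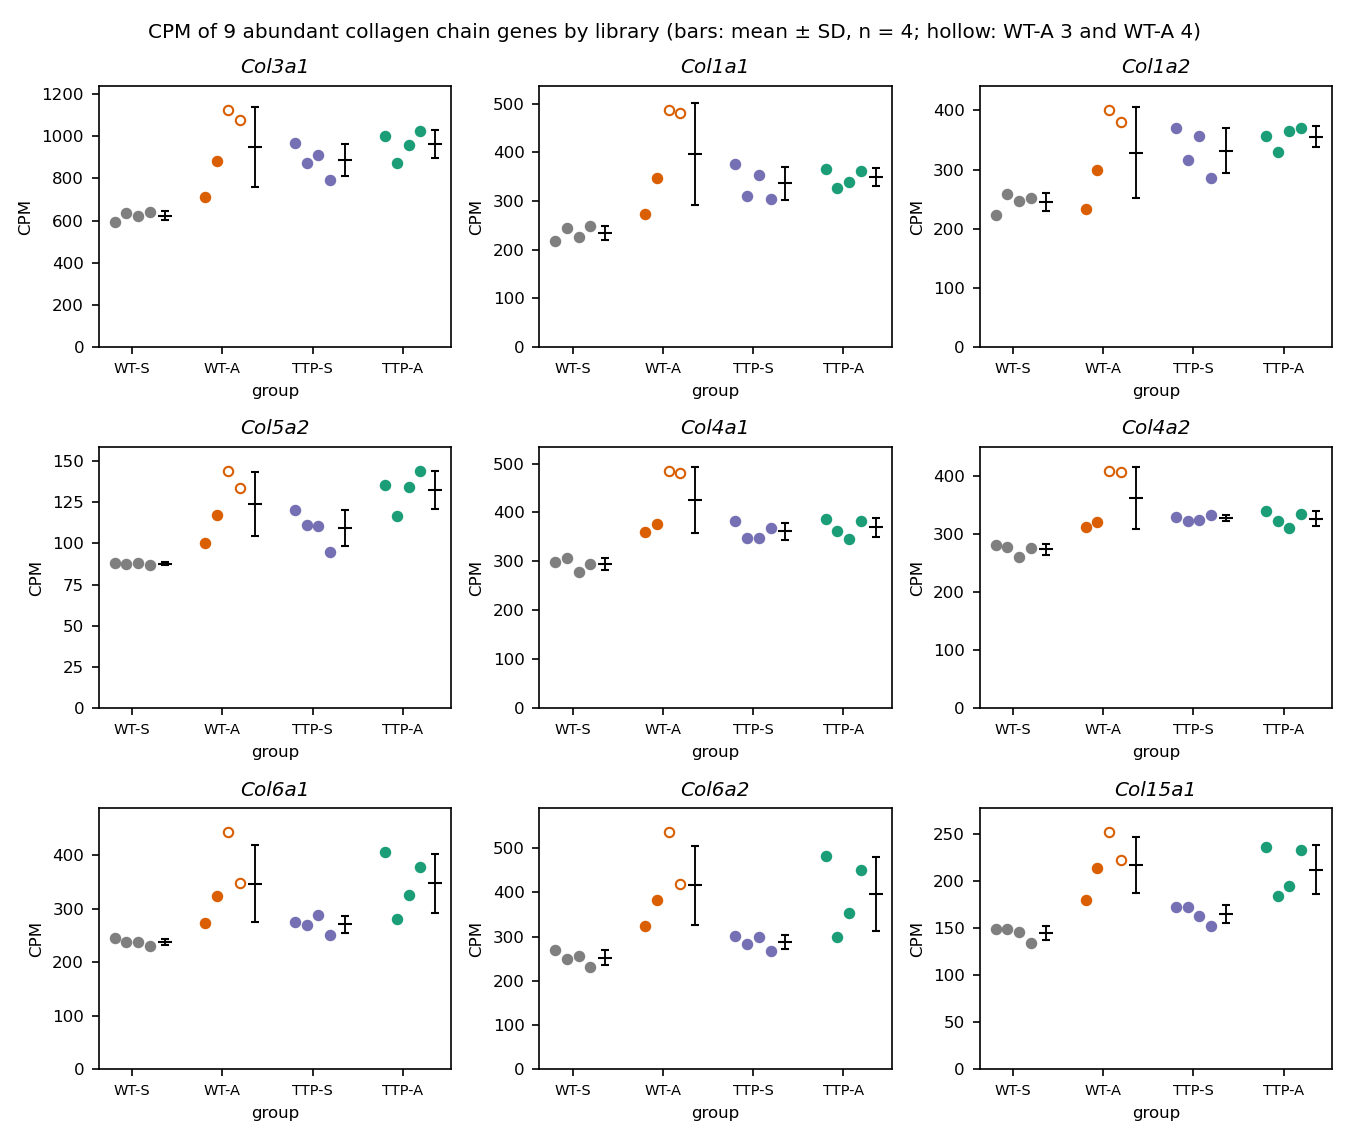
CPM of 9 abundant collagen chain genes in each library, by group, with mean ± SD (n = 4) beside the points and hollow points for WT-A 3 and WT-A 4. These genes were picked with their values known and are not the most abundant members in strict order. Over all 40 measured members WT-A exceeds WT-S without overlap for 9 (background 9.2%), and the hollow points are the highest WT-A libraries for all 9 genes shown.

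Type IV chains split by gene pair. Of the 6, Col4a1 and Col4a2 rose and Col4a3 and Col4a4 fell in WT-A, while Col4a5 and Col4a6 were not called in 16 libraries (background 9.8% higher and 8.99% lower). The chains assemble as Col4a1 with Col4a2 in most basement membranes, as Col4a3, Col4a4 and Col4a5 together in selected epithelia such as the kidney filter, and as Col4a5 with Col4a6 around smooth muscle. Each pair lies head to head in the genome. On GRCm38 the starts of Col4a1 (chr8:11198423-11312826, minus strand) and Col4a2 (plus strand) are 21 bp apart with an overlap of 22 bp, and those of Col4a5 and Col4a6 on the X chromosome are 1309 bp apart. The strand setting of the counting is not given in the sources used here, so reads in the overlap of Col4a1 and Col4a2 cannot be assigned.

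Col4a1 was at 299, 307, 279 and 295 CPM in WT-S, 359.8, 376, 485 and 482 in WT-A, 382, 348, 347 and 368 in TTP-S and 387, 361, 346 and 382 in TTP-A. Col4a2 was at 281, 278, 260.2 and 277 CPM in WT-S, 312, 321, 409 and 407 in WT-A, 329, 323, 324 and 333 in TTP-S and 339, 322, 311 and 334 in TTP-A. WT-A lay wholly above WT-S for both, and both were at similar levels in every library. The log2 differences were 0.53 (SE 0.09, adjusted p = 0.00208) and 0.40 (SE 0.08, adjusted p = 0.00444, edgeR). In 14 libraries they were 0.32 and 0.21 (adjusted p = 0.00618 and 0.0148). Both calls also held when any 1 of these 8 libraries was left out.

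Col4a3 (chr1:82586921-82722059, plus strand) and Col4a4 (chr1:82448423-82586849, minus strand) start 72 bp apart. The 71 bases between them, chr1:82586850-82586920 on GRCm38, are shown because they separate the starts of genes that were both lower in WT-A. The stretch is intergenic, copied from the RefSeq promoter table (GRCm38.p6) on the plus strand, which reads toward Col4a3.
Col4a4 to Col4a3: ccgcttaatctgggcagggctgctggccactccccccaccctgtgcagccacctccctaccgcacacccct
Its GC content is 69.0%. On both strands it holds neither the TATA box TATAAA, nor the CCAAT box CCAAT, nor the GC box GGGCGG, nor the glucocorticoid half-site AGAACA, which occur in 4.41%, 13.32%, 20.73% and 4.51% of the 71 bases before all 32851 starts in the table. With no match, no letters are in capitals. Col4a3 was at 24.4, 43.2, 34.6 and 43.005 CPM in WT-S, 23.1, 23.3, 21.96 and 25.8 in WT-A, 37.96, 46.1, 42.4 and 39.8 in TTP-S and 25.7, 32.9, 30.2 and 26.7 in TTP-A. Col4a4 was at 11.5, 20.4, 14.4 and 19.05 CPM in WT-S, 10.7, 11.9, 11.3 and 14.2 in WT-A, 18.1, 19.9, 17.2 and 18.05 in TTP-S and 12.4, 15.6, 15.4 and 13.2 in TTP-A. WT-S 1 was the lowest WT-S library for both and lay within the WT-A range, so the groups overlapped. The log2 differences in WT-A were -0.63 (SE 0.14, adjusted p = 0.00908) and -0.45 (SE 0.15, adjusted p = 0.0465, edgeR), and in 14 libraries -0.65 and -0.54 (adjusted p = 0.033 and 0.0674). Col4a4 was called in fits that left out WT-S 1 or WT-A 4, and in none of the 6 that left out another library, with an adjusted p of up to 0.17. Corpus epithelium markers summed to 128235 to 206218 CPM in WT-S, where WT-S 1 was lowest, against 86211 to 158771 in WT-A, and their part in the lower Col4a3 and Col4a4 was not tested.

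Col4a5 was at 47.8, 56.6, 53.5 and 54.9 CPM in WT-S, 39.01, 42.5, 54.8 and 53.5 in WT-A, 66.4, 63.9, 63.8 and 52.96 in TTP-S and 54.3, 59.9, 63.1 and 61.7 in TTP-A. Col4a6 was at 30.8, 37.4, 29.9 and 34.1 CPM in WT-S, 23.4, 24.2, 33.1 and 30.6 in WT-A, 34.6, 33.4, 35.9 and 30.5 in TTP-S and 31.3, 32.6, 34.05 and 37.9 in TTP-A. WT-A 1 and WT-A 2 were the lowest of all 16 libraries for both genes, and WT-A 3 and WT-A 4 lay among WT-S. Without that pair the log2 differences were -0.39 (SE 0.09, adjusted p = 0.0176) and -0.47 (SE 0.10, adjusted p = 0.00942, edgeR), against -0.17 and -0.25 with it (adjusted p = 0.253 and 0.11). In 14 libraries 2 of the 6 type IV genes thus rose and 3 fell (background 4.64% and 5.75%).

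**Figure D3:**
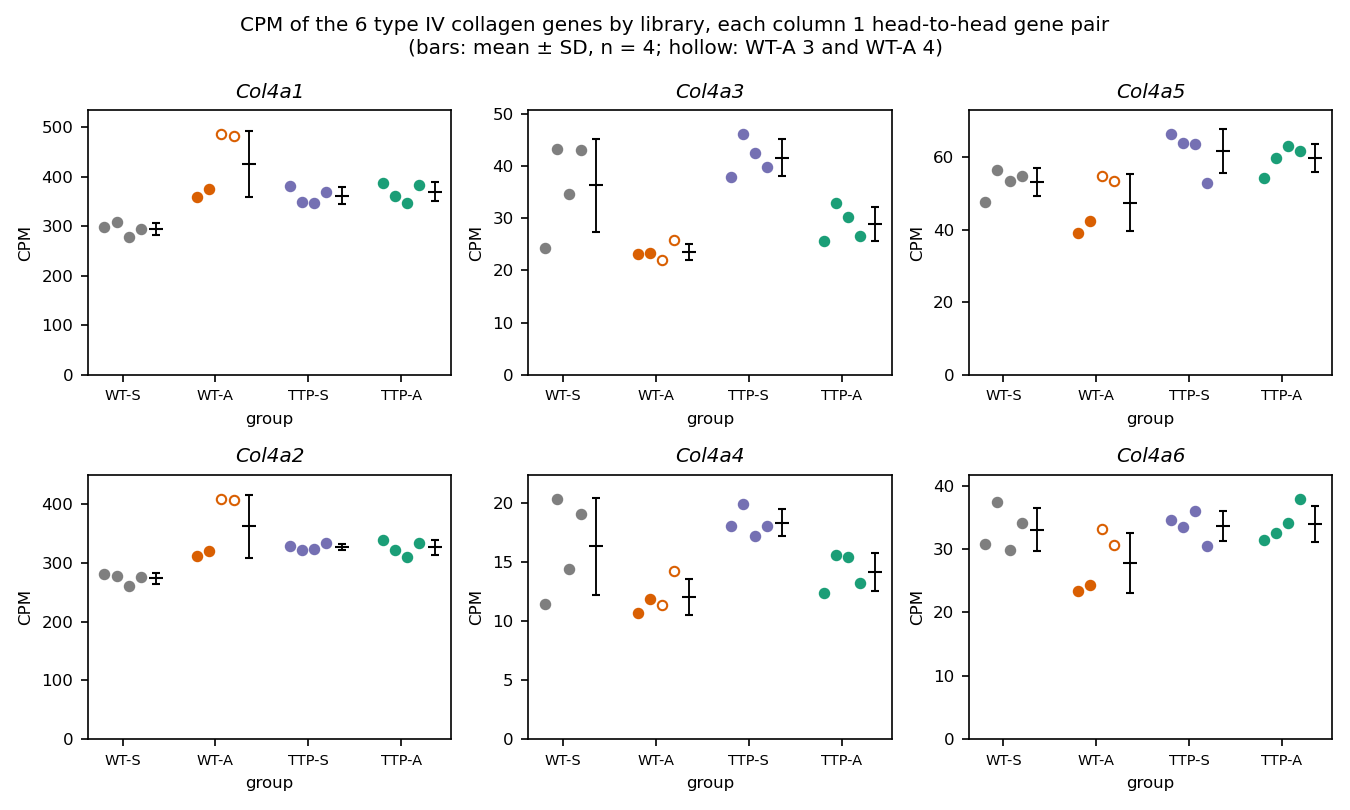
CPM of the 6 type IV collagen genes in each library by group, arranged so that each column holds a head-to-head gene pair, with mean ± SD (n = 4) and hollow points for WT-A 3 and WT-A 4. Col4a1 and Col4a2 are higher in every WT-A than in every WT-S library, while Col4a3 and Col4a4 are lower in both A groups on average.

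Type VI chains were called higher for 4 of 6 genes in WT-A, with none lower (background 9.8% higher), and for 1 in 14 libraries (background 4.64%). Col6a1 was at 245, 238, 238 and 231 CPM in WT-S, 273, 324, 444 and 347 in WT-A, 275, 270.3, 288 and 250.2 in TTP-S and 405, 281, 325 and 379 in TTP-A. Col6a2 was at 270.1, 249.97, 257 and 230.2 CPM in WT-S, 324, 382, 537 and 419 in WT-A, 300.2, 283, 299.7 and 268 in TTP-S and 481, 299.6, 354 and 449.8 in TTP-A. WT-A exceeded WT-S without overlap for both, which encode chains found in every type VI trimer, and WT-A 3 was the highest library. Log2 differences were 0.54 (SE 0.12, adjusted p = 0.00966) for Col6a1 and 0.72 (SE 0.15, adjusted p = 0.00529, edgeR) for Col6a2. In 14 libraries Col6a2 remained called (0.49, adjusted p = 0.0412) and Col6a1 did not (0.33, adjusted p = 0.074).

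The third position of the trimer is taken by Col6a3 or by one of the related chains Col6a4, Col6a5 and Col6a6, which lie side by side on chromosome 9. Col6a3 was at 75.7, 76.6, 67.2 and 67.1 CPM in WT-S, 69.1, 84.99, 106 and 104 in WT-A, 93.5, 84.1, 87.1 and 88.8 in TTP-S and 80.6, 86.6, 73.8 and 85.5 in TTP-A. The groups overlapped, and the log2 difference in WT-A was 0.34 (SE 0.11, adjusted p = 0.0365, edgeR), against 0.11 in 14 libraries (adjusted p = 0.475). Leaving out 1 library at a time, Col6a3 was called without WT-S 1, WT-A 1 or WT-A 2 and in none of the other 5 fits, with an adjusted p of up to 0.127. Col6a4 and Col6a6 were not called (log2 0.04 and 1.12, adjusted p = 0.848 and 0.154), and in 14 libraries were at -0.12 and 0.67.

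Col6a5 had the largest difference of the members called in WT-A in the fit of 16 libraries. Col6a5 was at 121, 30.8, 57.3 and 40.6 CPM in WT-S, 159.7, 242, 241 and 93.3 in WT-A, 18.7, 28.8, 27.96 and 27.5 in TTP-S and 332, 50.4, 135 and 256 in TTP-A. Levels ranged from 18.7 to 332 CPM, WT-S 1 lay above WT-A 4, and TTP-S was low throughout. In WT-A the log2 difference was 1.56 (SE 0.50, adjusted p = 0.0389, edgeR). It was 1.69 in 14 libraries without passing the threshold (adjusted p = 0.0648), and leaving out 1 library at a time it was called without WT-S 1, WT-A 1 or WT-A 4 and in none of the other 5 fits (adjusted p up to 0.112).

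Of the multiplexins, whose chains carry antiangiogenic fragments at their ends, Col15a1 rose in WT-A. Col15a1 was at 149, 149.8, 146 and 134 CPM in WT-S, 180.3, 214, 253 and 223 in WT-A, 172, 173, 163 and 153 in TTP-S and 237, 185, 195 and 233 in TTP-A. WT-A lay wholly above WT-S, with a log2 difference of 0.59 (SE 0.10, adjusted p = 0.00208, edgeR) and 0.45 in 14 libraries (adjusted p = 0.0124). Col18a1 did not pass the threshold (log2 0.36, SE 0.13, adjusted p = 0.056, and 0.10 in 14 libraries). Col20a1 (fibril-associated) was at 7.05, 8.82, 7.97 and 9.83 CPM in WT-S, 9.78, 13.004, 11.4 and 12.04 in WT-A, 9.36, 9.76, 9.88 and 8.51 in TTP-S and 9.63, 8.74, 9.27 and 9.03 in TTP-A. It was 1 of 8 fibril-associated chains called (background 9.8% higher), at a log2 difference of 0.45 (SE 0.10, adjusted p = 0.0101, edgeR) and 0.44 in 14 libraries (adjusted p = 0.0429), with WT-A 1 just below WT-S 4. Col16a1 (the most abundant of that class) held 37.3, 43.3, 38.5 and 40.5 CPM in WT-S, 37.2, 42.3, 52.9 and 57.7 in WT-A, 44.6, 42.1, 43.3 and 41.2 in TTP-S and 40.8, 41.6, 41.2 and 43.9 in TTP-A. Its log2 difference of 0.25 (adjusted p = 0.096) was -0.0066 in 14 libraries.

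Col8a2 codes for a short chain of vessel and corneal matrix and was at 7.28, 9.67, 7.97 and 8.04 CPM in WT-S, 5.49, 5.59, 7.53 and 5.52 in WT-A, 9.601, 6.75, 9.73 and 6.93 in TTP-S and 7.49, 6.96, 8.26 and 8.29 in TTP-A. WT-A 3 stood above the other WT-A libraries, which were the lowest of all 16. Col8a2 was called lower in WT-A, with a log2 difference of -0.45 (SE 0.14, adjusted p = 0.0405, edgeR) and -0.58 in 14 libraries (adjusted p = 0.0377). Leaving out 1 library at a time, it was called without WT-S 1 or WT-A 3 and in none of the other 6 fits (adjusted p up to 0.131). Its partner Col8a1 was at a log2 difference of -0.17 (adjusted p = 0.247), and -0.15 in 14 libraries.

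Col7a1 encodes the anchoring fibril that ties squamous epithelium to its stroma and was at 14.9, 26.1, 23.6 and 23.96 CPM in WT-S, 11.5, 16.04, 18.02 and 26.3 in WT-A, 23.98, 24.004, 20.8 and 20.1 in TTP-S and 21.7, 26.2, 31.6 and 25.7 in TTP-A. The groups overlapped, and the log2 difference in WT-A of -0.31 (adjusted p = 0.289) was -0.69 in 14 libraries (SE 0.20, adjusted p = 0.0423, edgeR). Col17a1 (hemidesmosomes of squamous epithelium) was at 0.2799, 0.721, 2.33 and 1.18 CPM in WT-S, 0.938, 24.97, 10.6 and 1.09 in WT-A, 6.52, 0.947, 1.93 and 0.738 in TTP-S and 1.73, 1.35, 0.336 and 4.86 in TTP-A. WT-A 2 and WT-A 3 were highest, and these libraries also had the highest sums of squamous markers, 765 and 486 CPM, with 345 in TTP-S 1, 200.1 CPM at most in WT-S and 191 at most in TTP-A. Col17a1 was called in 14 libraries (log2 3.49, adjusted p = 0.0478) and not in 16 (3.03, adjusted p = 0.0503, edgeR). Leaving out WT-A 2 gave 1.88 (adjusted p = 0.165) and leaving out WT-A 1 3.68, and the WT-A side of the 14-library value consists of WT-A 1 and WT-A 2 alone. The part of squamous tissue in it was not tested. Of the transmembrane chains Col13a1, at 10.6 ± 2.38 CPM in WT-S and 10.4 ± 1.79 in WT-A (SD, n = 4 each), Col23a1 and Col25a1, none was called (log2 -0.02, -0.23 and -0.49), nor was Col28a1 (-0.17, at 5.88 ± 0.871 and 5.24 ± 0.762 CPM). In 14 libraries Col13a1 was at -0.20, Col23a1 at -0.31, Col25a1 at -0.02 and Col28a1 at -0.34, again not called.

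Members of several marker lists were called in the same comparison (background 9.8% higher and 8.99% lower, and 4.64% and 5.75% in 14 libraries). Smooth muscle markers summed to 6576 to 7513 CPM in WT-S against 7822 to 9476 in WT-A, without overlap, and 5 of 6 were called higher in WT-A (1 in 14 libraries). Fibroblast markers summed to 1239 to 1325 CPM in WT-S against 1187 to 1667 in WT-A, with 1 of 6 called higher (0 in 14 libraries). Endothelial markers summed to 205 to 232 and 202 to 269.6 CPM, with 3 of 6 called higher (0 higher and 1 lower in 14 libraries), and macrophage markers to 94.3 to 123 and 115 to 177 CPM, with 2 of 6 called higher (1 in 14 libraries). Mesothelial markers summed to 0.973 to 1.62 and 1.104 to 5.197 CPM, with 2 of 4 tested called higher (1 in 14 libraries) and a median log2 difference of 1.17. Markers of the gastric corpus epithelium, which holds the acid and enzyme secreting glands, were called lower for 2 of 7 (6 in 14 libraries), with sums of 128235 to 206218 and 86211 to 158771 CPM. Of Schwann cell and enteric glia markers 1 of 5 was called higher (0 in 14 libraries), of squamous markers 1 of 6 (2 in 14 libraries), and of adipocyte markers 0 of 6. In TTP-S and TTP-A smooth muscle markers summed to 5751 to 8112 and 6288 to 7525 CPM. The part of these cells in the collagen differences was not tested, and in tissue RNA more cells of a type and more RNA per cell cannot be told apart.

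The second comparison asked the same in TTPΔARE mice. Col6a5 and Col11a2 were called in TTP-A against TTP-S, both higher, and none of the other 38 measured members (edgeR, background 2.9% of genes tested, 1.55% higher), and 13 of the 40 had an unadjusted p under 0.05 (background 15.9%). The members' median log2 difference was 0.018, against -0.0010 over all genes tested. The TTPΔARE libraries themselves do not include the pair set apart by GC content, but the shared estimate of spread does, and without that pair 9 members were called (background 6.26%, 3.17% higher and 3.1% lower), and with GC offsets 6 (background 5.13%). Adipocyte markers summed to 218 to 348 CPM in TTP-S and 124 to 183 CPM in TTP-A, without overlap and with 2 of 6 called lower (background 1.35%), and 1 of 6 fibroblast markers, Pdgfra, was called higher (background 1.55%). Only 2 of the 6 fibroblast markers lay above 0, with a median log2 difference of -0.087. Their sums overlapped, at 1242 to 1369 CPM in TTP-S and 1191 to 1357 in TTP-A. Endothelial markers summed to 213 to 237 CPM in TTP-S and 250.3 to 268 in TTP-A, also without overlap, with 0 of 6 called in 16 libraries and 2 higher in 14. Of the corpus epithelium markers, 1 of 7 was called lower (2 in 14 libraries, background 1.35% and 3.1%), and they summed to 180278 to 187869 CPM in TTP-S and 127236 to 185478 in TTP-A, while 1 of 5 Schwann cell and enteric glia markers was called higher. No smooth muscle, mesothelial, squamous or macrophage marker was called in 16 or 14 libraries. The part of these cells in the collagen differences of TTPΔARE mice was not tested.

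For Col6a5 every TTP-A library, at 332, 50.4, 135 and 256 CPM, exceeded every TTP-S library, at 18.7, 28.8, 27.96 and 27.5 CPM. The log2 difference was 2.91 (SE 0.52, adjusted p = 0.0118, edgeR), and it was called in all 8 fits that left out 1 of these libraries (adjusted p up to 0.0499, without TTP-A 1). Col11a2 encodes a minor fibril chain of cartilage and of the inner ear and was at 17.4, 3.01, 2.95 and 7.07 CPM in WT-S, 18.4, 23.2, 19.04 and 14.3 in WT-A, 2.23, 2.35, 3.51 and 3.05 in TTP-S and 26.3, 6.28, 7.49 and 15.4 in TTP-A. TTP-A lay wholly above TTP-S, and TTP-A 1 was highest of all 16 libraries, as for Col6a5. The log2 difference was 2.33 (SE 0.54, adjusted p = 0.0334, edgeR), and leaving out 1 library it was called without TTP-A 2 or TTP-A 3 and in none of the other 6 fits (adjusted p up to 0.146). Col9a3 (fibril-associated) was at 9.85, 1.87, 2.86 and 4.096 CPM in WT-S, 9.28, 10.1, 9.48 and 6.39 in WT-A, 2.51, 3.21, 2.52 and 1.87 in TTP-S and 11.8, 3.38, 5.52 and 8.71 in TTP-A. Its groups did not overlap in TTPΔARE mice either, with a log2 difference of 1.53 (SE 0.44) that did not pass the threshold (adjusted p = 0.0711, edgeR). In WT-A the log2 differences of Col11a2 and Col9a3 were 1.33 and 0.94 (adjusted p = 0.0688 and 0.115, edgeR). They were 1.49 and 1.08 in 14 libraries, not called, and 2.13 and 1.596 without WT-S 1, where both were called (adjusted p = 0.00622 and 0.00899).

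Libraries fell in the same order for Col6a5, Col11a2 and Col9a3 within WT-A (replicates 2, 3, 1 and 4 from high to low) and within TTP-A (1, 4, 3 and 2), and WT-S 1 was the highest WT-S library for each. The rest of the WT-S order differed between the genes. So did the TTP-S order, at 2, 3, 4 and 1 for Col6a5, 3, 4, 2 and 1 for Col11a2, and 2, 3, 1 and 4 for Col9a3. These 3 genes were chosen for this remark after their values were seen. A list of 6 mucous gland markers was added after seeing the data. Muc6 (a gland mucin) was at 2358, 464, 544 and 779 CPM in WT-S, 1560.2, 1902, 1741 and 1682 in WT-A, 271, 474, 405 and 460.3 in TTP-S and 3279, 617, 1169 and 1964 in TTP-A. In TTP-A and in WT-S, 3 of the 6 (Muc6, A4gnt and Agr2) ranked the libraries 1, 4, 3 and 2 from high to low, as Col9a3 did in both groups. In TTP-A, Aqp5 and Gkn3 ranked them 1, 4, 2 and 3, and Tff2 was highest in TTP-A 2, the lowest library for the 3 collagens. In WT-A none of the 6 had the order of the collagens. Muc6 rose in TTP-A (log2 2.13, SE 0.50, adjusted p = 0.0352, edgeR) and was at 0.73 in WT-A (adjusted p = 0.278). Of the 6 mucous markers 2 were called higher in TTP-A (background 1.55%), and their sum was 1112 to 1455 CPM in TTP-S, 1684 to 4859 in TTP-A, 1190.4 to 4022 in WT-S and 2809 to 3392 in WT-A. Chondrocyte markers, also added later, were near 0 for Acan, Matn1 and Matn3, at most 0.371 CPM, and Hapln1 did not exceed 3.06 CPM. Chad was at 15.9, 16.8, 16.1 and 16.97 CPM in TTP-S and 42.9, 17.2, 23.002 and 28.7 in TTP-A, the latter again in the order 1, 4, 3 and 2, and was not called (log2 0.77, adjusted p = 0.141). Sox9 was called higher in both WT-A (0.44, adjusted p = 0.00621) and TTP-A (0.41, adjusted p = 0.0297, edgeR). The sum of the 6 was 97.7 to 107 CPM in TTP-S against 119.6 to 171 in TTP-A, without overlap. Most of that sum was Sox9, at 78.02 to 87.97 CPM in TTP-S and 98.2 to 126 in TTP-A. Hapln1 was at 2.51, 2.51, 3.06 and 1.72 CPM in TTP-S and mostly lower in TTP-A, at 1.41, 2.37, 1.34 and 1.76. The part of either cell type in the 3 collagen differences was not tested.

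**Figure D4:**
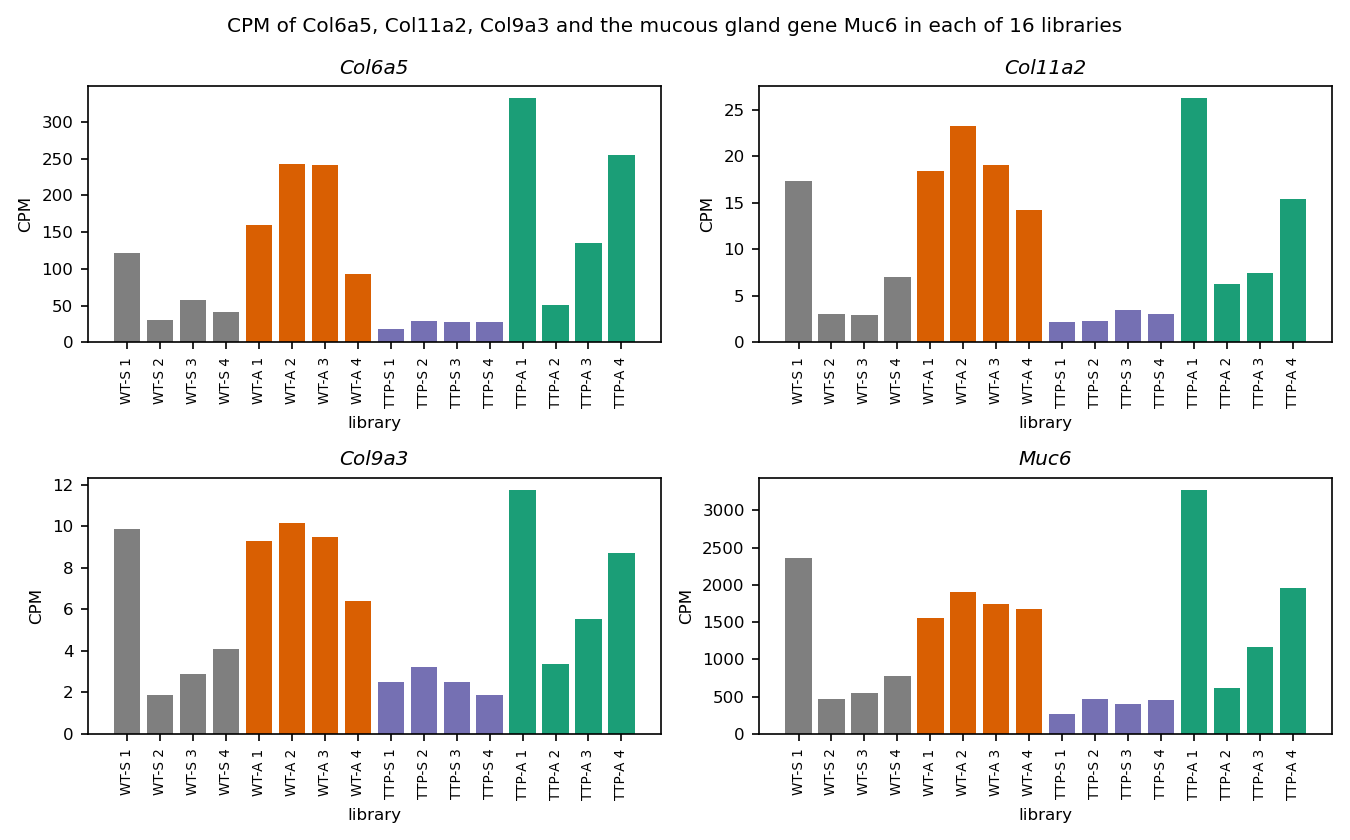
CPM of Col6a5, Col11a2, Col9a3 and the mucous gland gene Muc6 in each of 16 libraries, as bars coloured by group. In all 4 panels TTP-A 1 is the highest library, TTP-S libraries are low, and WT-S 1 is the highest of the WT-S libraries.

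Among the chains that rose in WT-A, the fibril and basement membrane chains were not called in TTPΔARE mice. The log2 differences in TTP-A were 0.12 for Col3a1, 0.05 for Col1a1, 0.10 for Col1a2, 0.03 for Col4a1 and -0.0027 for Col4a2 (adjusted p = 0.704, 0.927, 0.819, 0.929 and 0.996, edgeR). Closest to the threshold were Col15a1, at 0.36 (SE 0.10, adjusted p = 0.0543) without overlap between groups, and Col4a3, at -0.53 (SE 0.14, adjusted p = 0.0547) with every TTP-A library below every TTP-S library. In 14 libraries 7 more members were called: Col15a1 (0.36), Col6a1 (0.36), Col6a2 (0.46), Col6a4 (0.47) and Col5a2 (0.28) higher, and Col4a3 (-0.53) and Col14a1 (-0.53) lower. Across the 40 members, 4 were higher in TTP-A without overlap (Col6a5, Col11a2, Col9a3 and Col15a1, background 6.94%) and 3 lower (Col4a3, Col4a4 and Col14a1, background 6.77%). In WT-A 9 were higher without overlap (background 9.2%) and 0 lower (background 8.48%). Leaving out TTP-A 2 gave 8 calls in TTPΔARE mice (background 6.04%), and a fit of TTP-A and TTP-S alone gave 10 (background 8.05%).

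**Figure D5:**
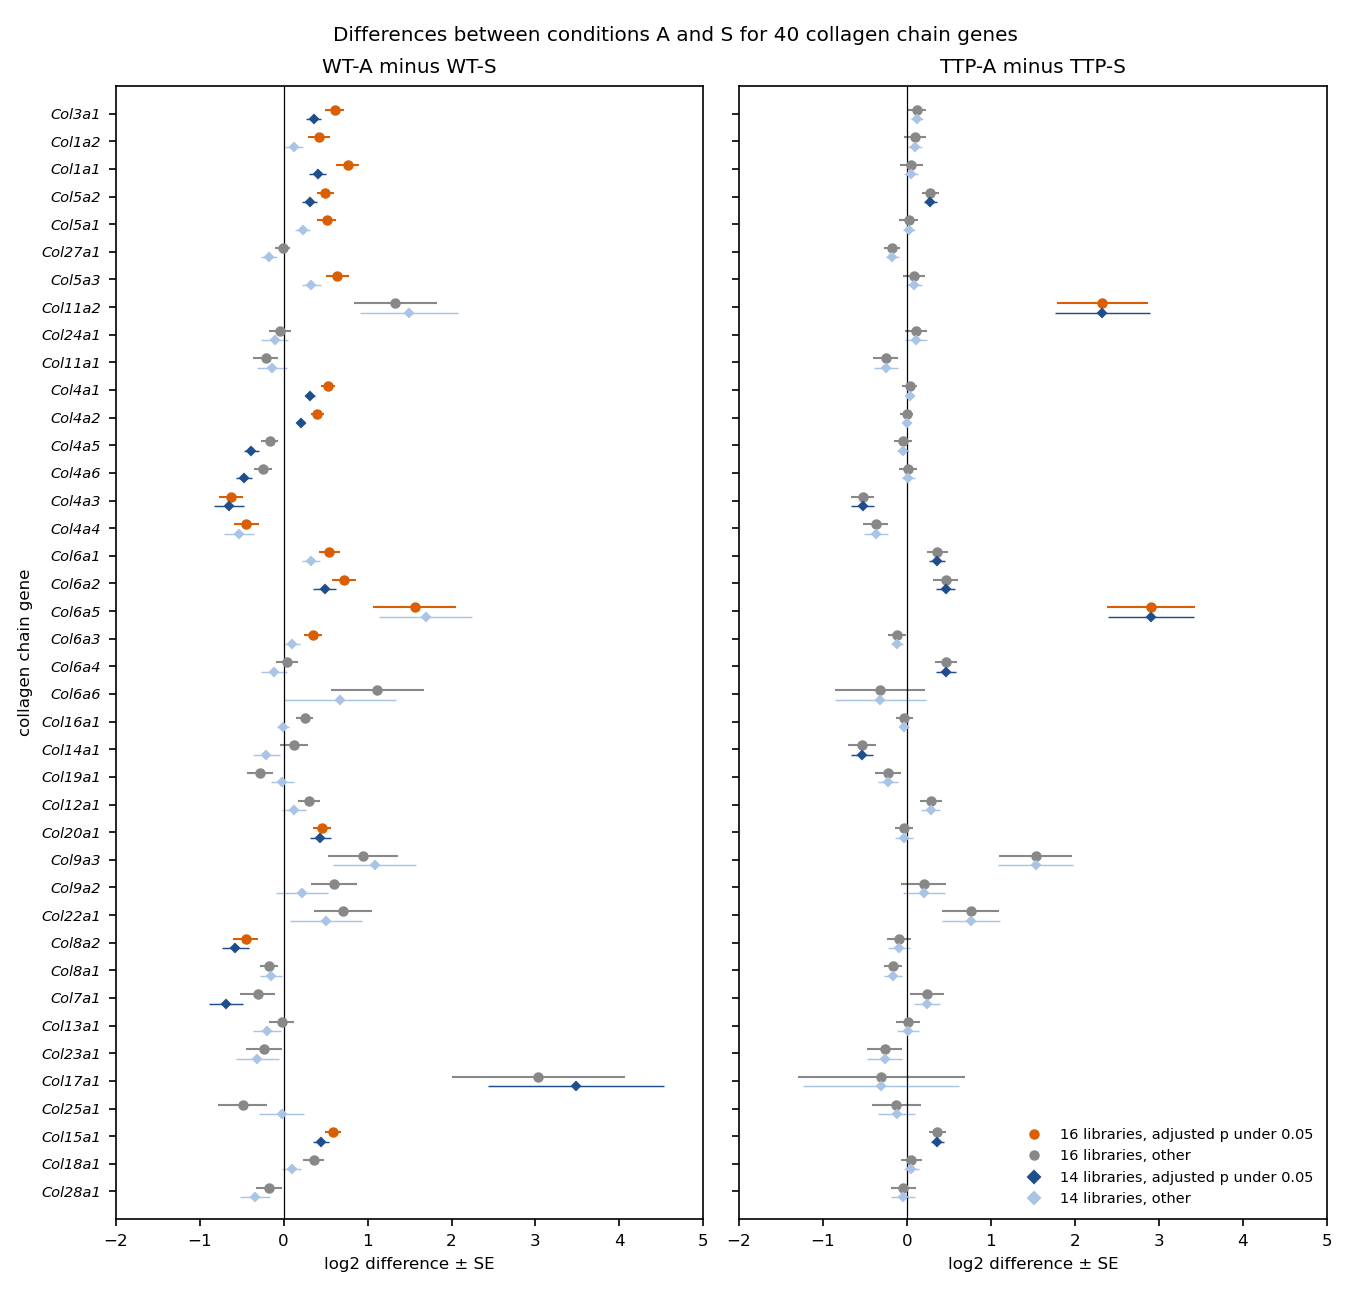
Log2 difference ± SE between conditions A and S of 40 collagen chain genes, ordered by class from fibrillar (top) to other, in wild-type (left) and TTPΔARE mice (right), with circles for the fit of 16 libraries and diamonds for 14. In wild-type mice 17 circles and 14 diamonds pass the threshold (background 18.8% and 10.4%), and in TTPΔARE mice 2 and 9 (background 2.9% and 6.26%), with Col6a5 and Col11a2 farthest to the right.

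The third comparison asked how the genotypes differed in condition S. No member was called in TTP-S against WT-S by edgeR (background 0.0325%), while 15 had an unadjusted p under 0.05 (background 7.49%), 13 of them higher, and DESeq2 called 3 (background 0.663%). The members' median log2 difference was 0.21, against -0.00052 over all genes tested, and 35 of 40 lay above 0. In 14 members every TTP-S library exceeded every WT-S library (background 3.5%) and in 1, Col6a5, every one was lower (background 3.24%). The lowest adjusted p was that of Col3a1 (log2 0.51, SE 0.11, adjusted p = 0.127). Without WT-A 3 and WT-A 4, which are in neither group but enter the shared spread, 7 members were called higher (background 0.365%, 0.269% higher): Col3a1 (0.51), Col1a1 (0.52), Col1a2 (0.44), Col5a1 (0.42), Col14a1 (0.67), Col4a1 (0.29) and Col4a2 (0.26). A fit of only TTP-S and WT-S also called 7 (background 0.405%), and GC offsets gave 3, Col3a1, Col4a1 and Col4a2 (background 0.201%).

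Col14a1 encodes a chain on the surface of fibrils and was at 15.5, 23.8, 18.97 and 17.5 CPM in WT-S, 15.4, 17.5, 24.5 and 25.6 in WT-A, 34.4, 30.9, 27.9 and 27.9 in TTP-S and 16.2, 22.9, 21.3 and 23.4 in TTP-A. All TTP-S libraries lay above all others, with a log2 difference from WT-S of 0.68 (SE 0.17, adjusted p = 0.203, edgeR) and of -0.53 between TTP-A and TTP-S (SE 0.17, adjusted p = 0.0989). The fibrillar sum was 1290.4 to 1417 CPM in WT-S against 1709.6 to 2063 in TTP-S, and the type IV sum 671 to 743 and 830.5 to 868 CPM, neither overlapping. Summed fibroblast markers were at 1239 to 1325 and 1242 to 1369 CPM and smooth muscle markers at 6576 to 7513 and 5751 to 8112 CPM in these groups, both overlapping. Gsn alone made up most of the fibroblast sum, at 1080.5 to 1153 CPM in WT-S and 1063 to 1141 in TTP-S. Above 0 lay 5 of 6 fibroblast markers (median log2 difference 0.15) and 3 of 6 smooth muscle markers (-0.0074), with none called. The part of these cells was not tested. Adipocyte markers summed to 161 to 215 and 218 to 348 CPM, without overlap, with 6 of 6 above 0 and none called (1 in 14 libraries), and their part was not tested. The comparisons of WT-A and of TTP-S with WT-S share the WT-S libraries, and those of TTP-S and TTP-A share TTP-S. Side by side, the log2 differences of WT-A and TTP-S from WT-S were 0.61 and 0.51 for Col3a1, 0.76 and 0.52 for Col1a1, 0.53 and 0.29 for Col4a1, and 0.72 and 0.19 for Col6a2.

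In the fourth comparison, of genotypes in condition A, no member was called (edgeR, background 5.17%). Smooth muscle markers summed to 6288 to 7525 CPM in TTP-A and 7822 to 9476 in WT-A, without overlap, with 4 of 6 called lower in TTP-A (background 2.3% lower, and 0 in 14 libraries). Of fibroblast and of endothelial markers 1 of 6 was called higher (442 of 15385 genes tested), and 0 and 1 in 14 libraries. Corpus epithelium markers were called for 0 of 7, and higher for 3 of 7 in 14 libraries (background 1.33%). The part of these cells was not tested. There were 10 members with an unadjusted p under 0.05 (background 27.5%), and DESeq2 called 3 (background 11.5%). The lowest adjusted p was that of Col4a5 (log2 0.33, SE 0.10, adjusted p = 0.0665). Without WT-A 3 and WT-A 4, Col7a1 (0.93), Col4a5 (0.55) and Col4a6 (0.51) were called higher in TTP-A (adjusted p = 0.0322, 0.0117 and 0.0209, background 1.87%, 1.33% higher), against the pair of remaining WT-A libraries. With GC offsets the same 3 were called together with Col27a1 and Col6a4 (log2 0.27 and 0.46, background 3.81%). Col11a1 and Col24a1 were higher in every TTP-A than in every WT-A library (background 5.99%) and Col20a1 lower (background 6.22%), with log2 differences of 0.37, 0.40 and -0.33, and 0.29, 0.46 and -0.31 in 14 libraries. Leaving out WT-A 1 gave 6 calls (background 20.7%), leaving out WT-A 4 gave 1 (background 3.26%), and leaving out any of the other 6 libraries gave 0. In 13 of the 40 members, Col1a1, Col4a1, Col4a2 and Col6a2 among them, the difference had the opposite sign in 14 libraries.

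Whether the difference between A and S differed between genotypes was tested with the interaction term. No member was called (edgeR, background 0.0585%), 11 had an unadjusted p under 0.05 (background 15.2%), and DESeq2 called 3 (background 1.81%). Of those 11 only 1, Col6a4, was above 0, that is, with the higher difference in TTPΔARE mice (log2 0.43, SE 0.19, adjusted p = 0.306). The lowest adjusted p was that of Col4a1 (log2 -0.50, SE 0.12, adjusted p = 0.124), followed by Col4a2 (-0.41, SE 0.11, adjusted p = 0.144) and Col1a1 (-0.71, SE 0.20, adjusted p = 0.151). In 14 libraries these were -0.29, -0.21 and -0.35 (adjusted p = 0.142, 0.171 and 0.26). Leaving out WT-A 1, the WT-A library with the lowest collagen sum, gave 7 calls (background 1.36%), and leaving out any of the other 15 gave 0. A difference between the genotypes for Col6a5 was not called either (log2 1.34, SE 0.69, adjusted p = 0.36). In 14 libraries Col6a4 and Col6a5 were at 0.58 and 1.22.

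Ratios were also taken between chains, per kb of transcript. The ratio of Col1a1 to Col1a2, which share the type I molecule, was 0.881, 0.8503, 0.831 and 0.8896 in WT-S, 1.05, 1.05, 1.096 and 1.14 in WT-A, 0.918, 0.884, 0.893 and 0.964 in TTP-S and 0.925, 0.893, 0.836 and 0.885 in TTP-A. All WT-A libraries, the pair set apart by GC content and the others alike, lay above all other libraries. Col6a2 to Col6a1 was 1.04 to 1.07 in WT-A, against 0.8798 to 0.972 in WT-S, 0.917 to 0.961 for TTP-S and 0.939 to 1.05 for TTP-A. Col4a1 to Col4a2 stayed within 1.04 to 1.16 over all 16 libraries, and Col4a3 to Col4a4 within 2.14 to 2.92. Between those pairs the ratio differed more, and Col4a1 to Col4a3 was 8.88 to 15.9 in WT-S and 20.2 to 28.6 in WT-A, with 9.76 to 13.01 in TTP-S and 14.2 to 19.5 in TTP-A, and the groups overlapped in neither genotype. Col6a5 to Col6a3, which take the same place in the trimer, ranged from 0.218 to 0.373 in TTP-S to 0.634 to 4.49 in TTP-A. In wild-type mice this ratio was 0.438 to 1.74 in WT-S and 0.974 to 3.103 in WT-A, with overlap. These ratios were described and not tested.

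Genes that fold, process, bind, sense and degrade collagen were counted in lists taken from general knowledge. Among 19 genes of folding and modification in the endoplasmic reticulum, 5 were higher and 2 lower in WT-A (background 9.8% and 8.99%), with a median log2 difference of 0.17 against 0.0094 over all genes tested. Serpinh1, the collagen chaperone HSP47, was at 95.1 ± 11.4 CPM in WT-S and 155 ± 27.4 in WT-A (SD, n = 4 each, log2 0.71, SE 0.12, adjusted p = 0.00272, edgeR), and the prolyl isomerase Fkbp10 rose by 0.62 on the log2 scale. The lysyl hydroxylase Plod2 was lower, at -0.49 (adjusted p = 0.0361), and in 14 libraries was at -0.17 (adjusted p = 0.261). In 14 libraries 4 of the 19 were called higher and none lower (background 4.64% and 5.75%), and Serpinh1 and Fkbp10 were at 0.47 and 0.42 (adjusted p = 0.0199 and 0.0346).

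Of 12 genes of procollagen processing and crosslinking, 6 were higher and none lower in WT-A (background 9.8% and 8.99%, median log2 difference 0.45). The largest were Pcolce (0.68), which enhances removal of the C-propeptide, and the lysyl oxidases Lox (0.65) and Loxl1 (0.60), whose adjusted p were 0.00223, 0.0345 and 0.0283 (edgeR). In 14 libraries 4 of the 12 were called higher (background 4.64%). Pcolce was at 0.54 and Lox at 0.86 there (adjusted p = 0.0138 and 0.0244), and Loxl1 was not called (log2 0.30, adjusted p = 0.304). Loxl2, another lysyl oxidase, was the 1 gene of the list called in TTP-S against WT-S (log2 0.36, SE 0.05, adjusted p = 0.0377, edgeR, background 0.0325%). Its mean ± SD over 4 libraries was 31.7 ± 1.44 CPM for WT-S, 40.6 ± 1.31 for TTP-S, 42.9 ± 2.49 for WT-A and 41.4 ± 1.35 for TTP-A. Of 10 collagen-binding matrix genes, Sparc (0.74) and Fn1 (0.66) rose in WT-A and none fell (background 9.8% and 8.99%, median log2 difference 0.11), at 0.49 and 0.46 in 14 libraries (adjusted p = 0.00715 and 0.0316). In 14 libraries the tenascin Tnxb was also called lower (-0.62, adjusted p = 0.00945, against -0.19 in 16), and the backgrounds there are 4.64% higher and 5.75% lower. The nidogen Nid1, which links type IV collagen to laminin, rose in TTP-S against WT-S (log2 0.36, SE 0.06, adjusted p = 0.0423, edgeR, background 0.0325%). Without WT-S 3, WT-S 4, TTP-S 2, TTP-S 3 or TTP-S 4 only 1 gene of all was called in this comparison. Loxl2 and Nid1 were therefore not both called in any of those fits.

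Among 9 tested collagen receptors, 3 were higher and 1 lower in WT-A (background 9.8% and 8.99%, median log2 difference 0.094). The integrin chain Itga2 rose by 0.68 and the endocytic receptor Mrc2 by 0.56 on the log2 scale, and the epithelial discoidin receptor Ddr1 by 0.35, while the mesenchymal Ddr2 was at -0.29 (adjusted p = 0.00529, 0.0152, 0.00208 and 0.0292, edgeR). In TTP-A against WT-A, Ddr2 was higher (0.45, adjusted p = 0.0149) and Ddr1 lower (-0.28, adjusted p = 0.0208, edgeR, background 5.17% in either direction). In 14 libraries the adjusted p in WT-A were 0.00845 for Itga2, 0.147 for Mrc2, 0.0114 for Ddr1 and 0.212 for Ddr2, and between the A groups 0.0389 for Ddr2 and 0.084 for Ddr1. Of 9 tested genes of degradation and its inhibitors, Timp1 (1.93), Mmp3 (2.36) and Mmp14 (0.72) rose in WT-A and Timp3 was lower (-0.33, adjusted p = 0.0135), with a median of 0.33 for the list, while in TTP-A against WT-A Timp3 was higher (0.40, adjusted p = 0.0178, edgeR, background 5.17%). In 14 libraries Timp3 was at -0.18 and 0.25 (adjusted p = 0.102 and 0.0701), and the 3 that rose were still called. Timp1, an inhibitor of collagenases, was at 1.64 ± 0.447 CPM in WT-S and 6.27 ± 1.64 in WT-A. Tgfb1, a ligand that drives collagen transcription, rose in both genotypes, by 0.71 in WT-A (SE 0.13, adjusted p = 0.0037, and 0.50 with adjusted p = 0.0301 in 14 libraries) and 0.54 in TTP-A (SE 0.13, adjusted p = 0.0427), and was the 1 of 4 TGF-beta list genes called. In TTP-A against TTP-S Tgfb1 was the only gene called in these 6 lists in 16 libraries (edgeR, background 1.55% higher). In 14 libraries 5 were called, 3 higher, Tgfb1 among them, and 2 lower (background 3.17% and 3.1%).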

How the data were processed

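Total RNA of 16 biopsies was sequenced from Illumina TruSeq libraries, per the labels' protocols. The authors deposited 1 table of whole-number read counts per gene. The submitters' processing notes name STAR 2.7.0f, featureCounts in Subread 1.6.4, DESeq2 and the build mm10. The annotation, the strand setting and any filters are not given in the sources used here. Genes were kept with filterByExpr (15385), scaled by TMM and fitted with edgeR 4.0.16 (quasi-likelihood, group means over all 16 libraries, R 4.3.3). The p-values were adjusted by Benjamini and Hochberg over all genes tested, and a gene was called at an adjusted p under 0.05. Standard errors are the absolute log2 difference over the square root of F. CPM use the TMM-scaled library sizes. Levels per kb divide by the longest protein-coding transcript of GENCODE M21. The script was tested on simulated data. The alternatives were DESeq2 1.42.0 (size factors, Wald test), other filters, fits of the compared groups alone, a replicate block, GC offsets, 14 libraries and leaving out each library.

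Members and gene lists were chosen with earlier results of these data known. Named genes were the low, called and most abundant chains of each class. List genes were named when called, up to 3 by size per list and comparison. Counting error is small for most members at 17453930 to 25849472 counts per library, and number of libraries limits precision.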

Additional observations from a re-analysis of the deposited data

Results flagged for a closer look

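In 88 groups of 4 libraries tested across the named members, 2 held a library far from its group, and chance gives about 1 in 20 groups. Col6a5 was at 18.7 CPM in TTP-S 1, below 27.5 to 28.8 CPM in the other TTP-S libraries. Col8a2 was at 7.53 CPM in WT-A 3, above 5.49 to 5.59 CPM in the other WT-A libraries.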

How the results depend on the processing

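A fit of only the groups compared called 7 collagen genes in WT-A against WT-S (17 in the fit of all 16 libraries), 10 in TTP-A against TTP-S (2) and 7 in TTP-S against WT-S (0). It called 4.49%, 8.05% and 0.405% of all genes. Without WT-A 3 and WT-A 4, the counts were 9 in TTP-A against TTP-S (6.26% of all genes), 7 in TTP-S against WT-S (0.365%) and 3 in TTP-A against WT-A (1.87%, and 0 members in 16 libraries), and the median log2 differences were 0.11 in WT-A against WT-S and 0.24 in TTP-A against WT-A. GC offsets gave 6, 3 and 5 calls in these 3 comparisons (5.13%, 0.201% and 3.81% of all genes), and a median of 0.22 in WT-A against WT-S. The DESeq2 Wald test called 8 in TTP-A against TTP-S (5.61% of all genes). It called 3 each in TTP-S against WT-S (0.663%), TTP-A against WT-A (11.5%) and the interaction (1.81%). Leaving out 1 library at a time gave 12 to 21 calls in WT-A against WT-S (8.11% to 32.2% of all genes), 1 to 8 in TTP-A against TTP-S (0.387% to 6.04%), 0 to 6 in TTP-A against WT-A (0.557% to 20.7%) and 0 to 7 in the interaction (0.0129% to 1.36%). In 14 libraries the sign turned for 23 of the 200 log2 differences of the 40 members, 3 in WT-A against WT-S (Col16a1 at -0.0066, Col14a1 at -0.21 and Col6a4 at -0.12), 13 in TTP-A against WT-A (Col4a1 at 0.0061 among them), 6 in the interaction and 1 in TTP-S against WT-S, and with GC offsets for 13. None of these was called in either fit. The cause of these shifts was not tested. DESeq2 size factors and other filters on low counts moved no count by over 1.5 times. A newer version of the quasi-likelihood fit, added after seeing the data, called 18, 2, 0, 0 and 0 (19.3%, 2.97%, 0.0585%, 5.41% and 0.0585% of all genes).

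With the replicate number as a block (replicate block), the counts were 17, 3, 0, 0 and 0 for WT-A against WT-S, TTP-A against TTP-S, TTP-S against WT-S, TTP-A against WT-A and the interaction (18.5%, 2.78%, 0.0325%, 4.06% and 0.026% of all genes). Libraries with the same number shared only a number, with correlations of their deviations from -0.325 to 0.242. The alternatives were tallied for the 74 single-gene results with an unadjusted p under 0.05 (edgeR) in the fit of 16 libraries, 33 genes in all. Most of these were not called in that fit, and such results kept their side of the threshold by staying uncalled. In this selected set 1188 values kept their direction and side of the threshold, 89 newly passed it, 55 no longer passed and 2 turned sign, Col16a1 and Col4a1 as above.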
